A study of Mus musculus with 12 samples.

Results

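The wild-type (WT) response to 3 h of B cell receptor stimulation was taken as the difference between 2 groups of arrays: WT follicular B cells cultured for 3 h with anti-IgM, and the same kind of cells cultured for 3 h without it. These are 4 of the 12 arrays of the series, 2 per group. The cells came from 6-week-old C57Bl/6 mice and were sorted from spleen as B220+ CD23hi CD21lo cells at a purity above 98%. The stimulus was anti-IgM, as goat F(ab')2 fragments at 10 µg/ml, and all cells, controls included, were cultured in complete medium after the sort. The unstimulated group is therefore a culture control and not a sample of uncultured cells. The series describes 2 independent experiments. It also holds WT cells at 12 h of anti-IgM and the same 3 conditions in cells carrying the IkL/L alleles, which make them deficient in Ikaros. Those arrays are used here only to show where the WT response at 3 h differs. No readout chose the samples or the genes that were tested, but the gene lists and the genes described were chosen with earlier results of these data known.

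The B cell receptor is a membrane immunoglobulin held with the signalling chains CD79a and CD79b. When it is cross-linked, SRC family kinases and SYK phosphorylate those chains, and BTK and PLCG2 pass the signal on to calcium and NFAT, to protein kinase C and NF-kB, and to RAS and ERK. Coreceptors with inhibitory motifs, such as CD22 and FCGR2B, restrain the signal, and PI3 kinase switches off FOXO factors that hold a resting cell in quiescence. F(ab')2 fragments lack the Fc part, so they engage the receptor without bringing in FCGR2B. A resting follicular B cell answers with immediate early genes within the first hour and then with growth, before it replicates its DNA.

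Values are RMA signals on a log2 scale, and paired values give replicate 1 and then replicate 2. Differences are 3 h minus unstimulated in log2 units, and folds are the same differences on the linear scale. A gene is said to have risen, fallen or changed where limma's moderated test gave a Benjamini-Hochberg adjusted p under 0.05 over 18193 genes. SE stands for limma's moderated standard error, and n = 2 arrays per group throughout. Genes whose lower group had an array under a floor of 4.21 have a fold given as "at least", computed with such arrays raised to the floor. A call is described as kept where the gene was also called in each of the 4 fits that left out 1 of the 4 WT arrays.

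The 2 unstimulated arrays correlated with r = 0.993 over all genes and the 2 arrays at 3 h with 0.991, and 7567 to 7819 genes lay above the floor on an array. All 10 follicular B cell markers were above the floor on all 4 arrays, and none of 10 T and NK cell markers was. The summed linear signal of the follicular markers was 22014 and 23586 in unstimulated cells and 10686 and 13005 at 3 h. Of these markers 6 fell (Cd79a, Cd79b, Ms4a1, Cd22, Cd37 and Pax5), 1 rose and 3 were not called. The rise was that of Cr2 (CD21, low in the sort gate), from 7.19 and 6.89 to 8.49 and 8.06, and the calls of Cr2 and Pax5 were lost without unstimulated replicate 2 or 3 h replicate 1. Fcer2a (CD23, used in the sort) went from 9.46 and 9.83 to 9.02 and 9.10 (adjusted p = 0.0992). In bulk RNA, fewer cells of a type and less RNA of a gene per cell cannot be told apart. Of 9 marginal zone B cell markers 7 were above the floor on each unstimulated array and 8 on each 3 h array. Their sums were 2095 and 2333 in unstimulated cells and 1474 and 1662 at 3 h. Among these markers 4 fell and 2 rose, and S1pr3, ranked first among the rises below, is 1 of the 2. Markers of other cells differed between the replicates, and some also between the conditions. Of 7 neutrophil markers, 3 were above the floor on both replicate 2 arrays and 0 on both replicate 1 arrays, and S100a8 read 3.80 and 5.59 without and 3.49 and 6.26 with anti-IgM. Macrophage and dendritic cell markers above the floor numbered 1, 1, 2 and 1 of 11, with sums of 429 and 270 in unstimulated cells and 286 and 144 at 3 h. Plasma cell markers above it numbered 3, 3, 3 and 4 of 6, with sums of 246 and 813 and then 228 and 421. Marginal zone, macrophage and plasma cell sums were thus lower with anti-IgM in both replicates. No macrophage marker was called (1 lower with the replicate block, and 1 without 3 h replicate 1), and of the plasma cell markers Sdc1 (CD138) fell, from 6.22 and 6.61 to 3.45 and 4.63, and Prdm1 rose, both calls kept. The part of these cells in the results was not tested. Xist, made in female cells, read 10.69 and 3.22 without and 10.21 and 3.35 with anti-IgM, so the replicate 1 arrays are from female and the replicate 2 arrays from male cells, in both groups. The median signal of 20 interferon-stimulated genes also followed the replicate, at 6.98 and 4.40 in unstimulated cells and 7.0 and 3.52 at 3 h. Of those 20 genes 1 changed (Stat2, lower), a call that was lost without unstimulated replicate 1 or 3 h replicate 2, on the 4 WT arrays alone and with the mean of its probe sets. Without unstimulated replicate 2 the count was 2, and with a replicate block it was 3.

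At 3 h 3529 of 18193 genes had changed (19.4%), with 1665 higher (9.15%) and 1864 lower (10.2%). The median difference was 1.01 among genes that rose, -1.03 among genes that fell and 0.02 over all genes. RMA brings the arrays to a common distribution, so a median near 0 over all genes follows from the processing. With scaling to 9 housekeeping genes 1196 rose and 1600 fell. Of those 9 genes themselves 1 rose and 1 fell without this scaling, with differences from -0.57 to 0.55. At least 2-fold changes were seen in 850 genes that rose (4.67%) and 980 that fell (5.39%). The shares of 9.15% and 10.2% over all genes are a background for the counts per gene list given later. Among 7805 genes whose mean lay above the floor, 20.4% rose and 20.6% fell. These are the nearer background for lists made mostly of such genes, like the respiratory chain (73 of 74) and splicing genes (44 of 47). In 9963 genes (54.8%) the 2 groups did not overlap, and these include every gene called changed. The calls of 940 rising and 1031 falling genes were kept when any of the 4 arrays was left out. With a block for the replicate number 2137 genes rose and 2321 fell. With 1 replicate number alone for WT the counts were lower: 731 rose and 1040 fell without WT replicate 1, and 859 rose and 1009 fell without WT replicate 2.

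The rankings of rises and falls were taken from called genes whose groups did not overlap, leaving out clone, locus and predicted-gene names. Ranked by log2 difference the rises began with S1pr3, a receptor for the lipid sphingosine-1-phosphate. It lay below the floor in unstimulated cells at 3.39 and 3.43 and reached 8.28 and 8.53 at 3 h (log2 difference 4.99, SE 0.24, adjusted p = 4.61e-06, at least 18.4-fold). Fabp5, which carries fatty acids inside cells, went from 4.89 and 5.39 to 9.29 and 9.70 (20.4-fold), and since S1pr3 started below the floor the order of these 2 genes is not settled. Slc15a3, a lysosomal peptide and histidine transporter, went from 6.35 and 6.66 to 10.44 and 10.40 (15.1-fold). For all 3 genes the gap between the groups was several times the distance between replicates. Rgs1, which shortens signals of chemokine receptors, rose from 5.27 and 4.64 to 8.97 and 8.48 (13.7-fold), and Ahr, the aryl hydrocarbon receptor, from 7.14 and 7.01 to 10.74 and 10.65 (12.3-fold). The repressor Gfi1 went from 5.49 and 6.58 to 9.43 and 9.75 (11.7-fold), with its unstimulated replicates further apart than those of Ahr. Tent5c, which extends poly(A) tails of secretory mRNAs, rose 11.1-fold, the AP-1 member Fosl2 10.7-fold, the small MAF factor Maff 10.1-fold and the G protein subunit Gng4 9.54-fold. The chemokine gene Ccl3 went from 4.84 and 4.53 to 8.58 and 7.47 (10.1-fold), with more than 1 log2 unit between its 3 h replicates. Lonrf3, a RING finger gene, went from below the floor to 6.44 and 6.81 (at least 5.35-fold).

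Among the falls Neurl3, a ubiquitin ligase gene, moved most, from 9.51 and 9.90 to 5.16 and 4.81 (log2 difference -4.72, 26.3-fold lower). Cd55, which protects cells from complement, went from 9.46 and 9.48 to 5.02 and 5.38 (19.3-fold lower), and Sting1, the sensor of cyclic dinucleotides, from 9.23 and 9.73 to 4.96 and 5.84 (17-fold lower). Each of these ended within 2 log2 units of the floor. Il10ra, the ligand-binding chain of the interleukin 10 receptor, went from 7.90 and 7.73 to 3.69 and 3.76 (at least 12.2-fold lower), and Pgap1, which remodels GPI anchors, from 7.22 and 7.29 to 3.18 and 3.08 (at least 8.27-fold lower). Regulators of RAS, RAP and diacylglycerol made up 3 of the 12 largest falls. Rasa3, which inactivates RAS and RAP, went from 11.08 and 11.45 to 7.15 and 7.54 (15.1-fold lower), Dgka, a kinase that removes diacylglycerol, from 10.42 and 10.76 to 6.62 and 7.04 (13.5-fold lower), and Rasgrp2, which activates RAP1, from 7.06 and 7.68 to 3.36 and 3.57 (at least 8.97-fold lower). The remaining 4 were Tmem71 (15.4-fold lower), the amino acid transporter Slc43a2 (12.6-fold lower), Kbtbd11 (11.6-fold lower) and the phosphatase Cdc25b (at least 8.53-fold lower). The calls of these 12 rises and 12 falls were kept. Fosl2, Pgap1 and Kbtbd11 rest on 1 called probe set of 2, 2 and 4, and the probe sets of the other genes gave no call in the opposite direction.

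**Figure D1:**
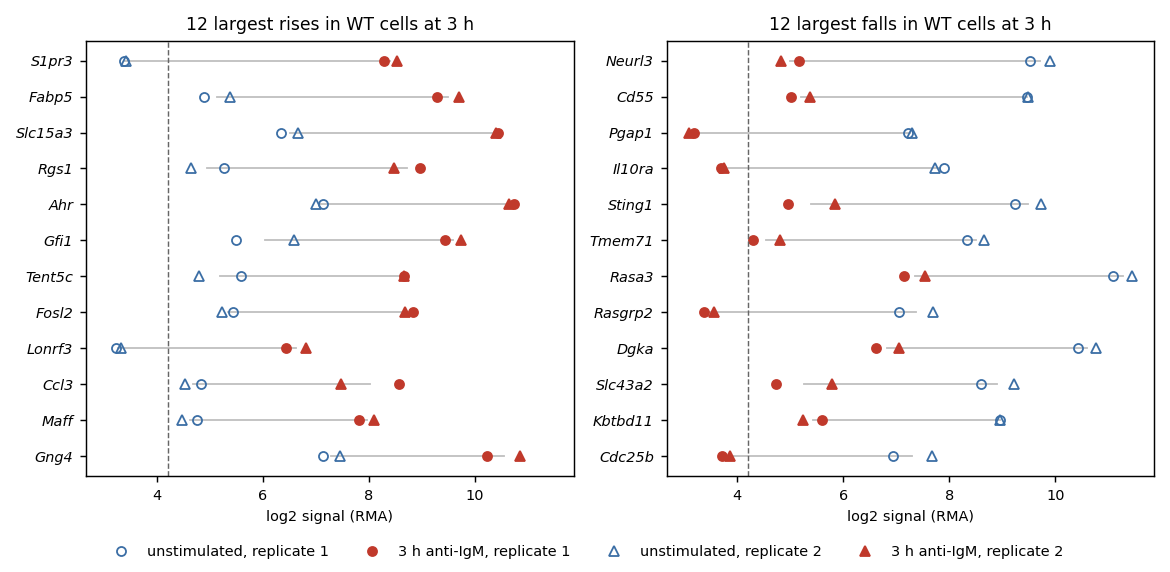
Log2 RMA signal (horizontal axis) of the 12 genes with the largest rises and the 12 with the largest falls, with 1 point per array for 2 unstimulated and 2 anti-IgM 3 h arrays; the line marks the floor of 4.21. The 2 groups of points lie apart in every gene because the genes were chosen that way, and clone, locus and predicted-gene names were left out. S1pr3 runs from below the floor to above 8.

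The EGR and NR4A families are transcription factors induced directly by antigen receptor signals. Of 15 immediate early genes 7 rose and 1 fell, with a median difference of 0.50, and 6 of the rises and the fall were kept. Egr2 went from 8.15 and 8.38 to 10.86 and 11.06 (log2 difference 2.70, SE 0.18, adjusted p = 1.16e-05, 6.48-fold). Egr3 went from 8.36 and 8.45 to 10.02 and 10.47 (3.59-fold). Egr1 went from 8.91 and 8.99 to 10.42 and 10.74 (adjusted p = 0.00854), and its adjusted p was 0.0525 without unstimulated replicate 1 and 0.0625 without 3 h replicate 2. All 3 NR4A genes, orphan nuclear receptors, rose. Nr4a1 (Nur77) went from 9.26 and 9.15 to 11.07 and 10.99 (3.54-fold), Nr4a2 from 5.18 and 4.76 to 7.88 and 7.98 (7.79-fold) and Nr4a3 from 7.87 and 7.39 to 10.81 and 10.39 (7.85-fold). Nab2, a corepressor that binds EGR proteins, rose from 5.42 and 5.57 to 6.65 and 7.16 (2.66-fold). The antiproliferative gene Btg2 was the member that fell, from 10.15 and 10.36 to 8.56 and 8.59 (3.21-fold lower).

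The promoter of Nab2 is shown because it holds a match to an EGR motif, searched as GCGTGGG on both strands. The stretch is chr10:127666704-127666761 on the minus strand (RefSeq, GRCm38.p6), its capitals mark the motif read on the opposite strand, and 24 bases lie between it and the annotated start.
Nab2: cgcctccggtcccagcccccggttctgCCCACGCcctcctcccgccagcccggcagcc
In the 300-base windows used (250 before a start and 50 after it), 8.53% of 14452 genes with a promoter entry held this motif. The share was 10.9% of genes that rose and 9.95% of genes that fell, both near the 10.0% of genes with a mean above the floor. In the immediate early list 2 of 11 genes held it (18.2%). A match is a string of letters and no evidence of binding.

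AP-1 is built from FOS and JUN proteins, and BATF and MAF proteins share its type of dimer. Of 19 genes of these families 7 rose and 2 fell (median difference 0.68), and 6 rises and 1 fall were kept. The falls numbered 1 without unstimulated replicate 2, without 3 h replicate 1 or with scaling to 9 housekeeping genes. Fosl2 went from 5.44 and 5.24 to 8.83 and 8.69 (log2 difference 3.42, SE 0.33, adjusted p = 6.93e-05). Batf went from 5.42 and 5.54 to 7.38 and 7.41 (3.77-fold), and Maff from 4.77 and 4.48 to 7.81 and 8.11. The other small MAF genes rose less, Mafg 3.14-fold and Mafk 2.23-fold, as did the repressor Bach1 (1.77-fold). Jund moved the other way, from 8.85 and 8.73 to 7.05 and 7.35 (3.01-fold lower). The classical members were not called at this time: Fos read 6.96 and 6.64 before and 7.77 and 7.18 after stimulation (adjusted p = 0.414), and Junb had a difference of 0.72 (adjusted p = 0.216). With the replicate block both were called, at adjusted p = 0.00905 and 0.00345. The AP-1 motif, searched as TGACTCA on both strands, was in the window of 0 of 16 genes of this list. Its share was 3.77% of genes that rose, 3.93% of genes that fell and 5.33% of all genes.

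In the NF-kB list 7 of the 8 genes that rose are members of the IkB family or feedback genes. Of 16 genes in all 2 fell (median difference 0.64), and 6 rises and 1 fall were kept, with 1 fall without unstimulated replicate 2 or 3 h replicate 1. Of 6 genes of the IkB family 4 rose and 1 fell. The rises were those of Nfkbib, Nfkbie, Nfkbid and Nfkbiz, at 2.83-fold, 2.49-fold, 2.63-fold and 1.67-fold. Bcl3, an atypical IkB that can activate transcription, went from 7.37 and 7.61 to 4.39 and 5.38 (log2 difference -2.61, adjusted p = 7.23e-05). Tnfaip3 (A20), a deubiquitinase that ends NF-kB signals, went from 8.90 and 8.96 to 10.69 and 10.37 (3.03-fold), and its partner Tnip2 from 5.11 and 5.17 to 6.48 and 6.53 (2.57-fold). Of the subunits in the list, Rel went from 7.37 and 7.02 to 9.09 and 8.20 (adjusted p = 0.00717), but its adjusted p was 0.0638 without unstimulated replicate 2 and 0.0617 without 3 h replicate 1. Rela, Relb and Nfkb2 had differences of -0.10, 0.22 and 0.29 that did not pass the test.

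The receptor complex and its proximal enzymes fell more often than they rose. Of 28 genes of the receptor, its kinases, adaptors and effectors 9 fell and 3 rose (median difference -0.07), and 8 falls and 2 rises were kept. Cd79a went from 10.66 and 10.58 to 8.65 and 8.87 (log2 difference -1.86, SE 0.25, adjusted p = 0.000493), and Cd79b from 12.56 and 12.63 to 10.43 and 10.91 (3.79-fold lower). The heavy chain gene Ighm, whose product the antibody binds, read 12.75 and 12.85 before and 12.04 and 12.44 after stimulation, which was not called (adjusted p = 0.0927), but was called with the replicate block (adjusted p = 0.0242) and with an intensity trend (adjusted p = 0.0274). Syk, the kinase recruited to the phosphorylated chains, fell most, from 10.83 and 11.15 to 7.43 and 8.23 (8.94-fold lower). Its 4 probe sets all fell. Btk fell 2.85-fold, Plcg2 2.36-fold and Prkcb, the protein kinase C isoform upstream of NF-kB, 1.69-fold. The adaptors Bank1 and Dapp1 went from 10.58 and 10.41 to 8.40 and 7.96 (4.97-fold lower) and from 6.91 and 6.57 to 3.59 and 4.07 (at least 5.79-fold lower). Opposite to these, the SRC family kinase Fyn went from 10.46 and 10.14 to 11.49 and 11.40 (2.22-fold higher) and Pik3ap1 (BCAP), which links the receptor to PI3 kinase, from 7.36 and 6.98 to 8.81 and 8.79 (3.09-fold higher).

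Inhibitors of the receptor fell as well. Of 28 such genes 15 fell and 3 rose (median difference -0.58). The falls numbered 9 without unstimulated replicate 2, and the rises 1 without unstimulated replicate 1. The 8 falls that were kept include receptors and enzymes. Fcgr2b, the inhibitory IgG receptor, went from 9.53 and 9.73 to 7.56 and 7.45 (log2 difference -2.13, SE 0.13, adjusted p = 9.48e-06), Cd22 from 10.47 and 10.85 to 8.81 and 8.89 (3.51-fold lower) and Siglecg from 8.98 and 9.28 to 6.56 and 6.64 (5.77-fold lower). Pecam1 and Pirb, which carry the same type of inhibitory motif, fell to below the floor (at least 2.47-fold and 1.61-fold lower). Inside the cell, the ubiquitin ligase Cblb went from 8.65 and 8.38 to 6.40 and 6.26 (4.55-fold lower). Csk, the kinase that holds SRC family kinases inactive, fell 2.41-fold. Cd72 rose, from 10.44 and 10.25 to 11.32 and 11.31 (1.95-fold), the one rise of the list that was kept. The phosphatase gene Ptpn6 (SHP-1) had a difference of -0.14 (adjusted p = 0.69).

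Most exchange factors of RAS and RAP fell. Of 6 exchange factors 5 fell and 0 rose, and 4 falls were kept. The largest of these falls is that of Rasgrp2, the RAP1 activator given above. Rasgrp1 went from 8.33 and 8.64 to 6.24 and 6.71 (4.03-fold lower) and Rasgrp3, the main RAS activator downstream of the B cell receptor, from 9.83 and 9.40 to 7.98 and 7.58 (log2 difference -1.83, adjusted p = 8.09e-05). Sos1 fell 1.73-fold, a call lost with the mean of its probe sets (limma adjusted p = 0.454). The GTPase-activating proteins, which turn RAS off, were split: Rasa3 fell as given above, while Rasal1 rose from 5.03 and 5.14 to 6.42 and 6.52 (2.62-fold) and Rasa2 from 8.22 and 7.94 to 8.94 and 8.89 (1.78-fold). Feedback inhibitors of ERK gave 4 rises and 0 falls in 17 genes (median difference 0.23), with 3 rises kept. The rises were 23.5%, against 9.15% of all genes and 20.4% of genes above the floor. The phosphatase Dusp4 went from 8.71 and 8.60 to 10.20 and 10.67 (3.43-fold) and the RAF inhibitor Spred1 from 4.61 and 4.61 to 5.64 and 5.60 (2.01-fold). Spry2 went from below the floor to 4.46 and 4.42 (at least 1.18-fold). Dusp1, Dusp5 and Dusp6 had differences of 0.49, -0.57 and -0.11 that did not pass the test.

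**Figure D2:**
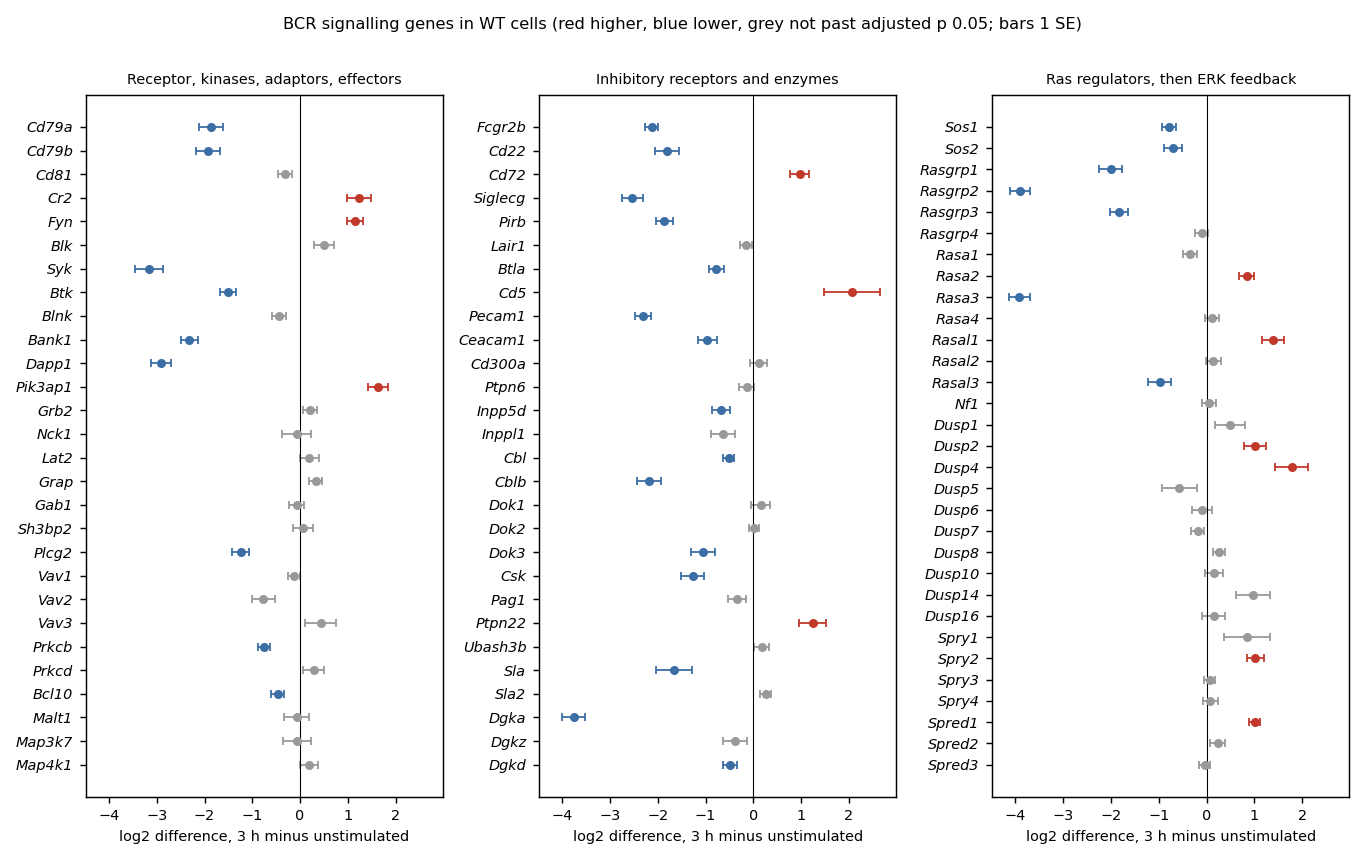
Log2 difference (3 h minus unstimulated, WT, horizontal axis) of every gene of 3 lists, drawn in separate panels: receptor, kinases, adaptors and effectors (28 genes, 3 higher, 9 lower), inhibitory receptors and enzymes (28 genes, 3 higher, 15 lower), and RAS regulators with ERK feedback (31 genes, 6 higher, 7 lower). Bars are 1 moderated standard error, red and blue points are genes called higher and lower, and grey points did not pass an adjusted p of 0.05. Syk, Rasa3, Rasgrp2 and Dgka lie furthest to the left.

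The calcium branch changed in its parts. Of 24 genes of calcium release, entry and calcineurin signalling 8 fell and 5 rose (median difference -0.25), and 4 falls and 3 rises were kept. The falls were 33.3%, against 20.6% of genes above the floor. The rises, at 20.8%, were near the 20.4% of such genes. The falls numbered 5 and 4 without unstimulated replicate 1 and 2, and the rises 3 without unstimulated replicate 1. Scaling to 9 housekeeping genes gave 5 falls and 3 rises. Itpr3, a channel that releases calcium from the endoplasmic reticulum, went from 8.18 and 8.50 to 5.78 and 6.24 (5.04-fold lower), and the store sensor Stim1 from 5.34 and 5.15 to 4.49 and 4.27 (1.82-fold lower). The entry channel Orai1 rose from 6.50 and 6.13 to 7.51 and 8.12 (2.82-fold), and the pump Atp2a2 (SERCA2), which refills the store, from 9.16 and 9.23 to 10.33 and 10.46 (2.30-fold). The calcineurin catalytic subunit Ppp3ca fell 3.81-fold. Of the NFAT genes, Nfatc1 went from 8.97 and 8.86 to 9.90 and 9.63 (1.80-fold higher) and Nfatc3 from 9.82 and 10.09 to 8.90 and 9.03 (1.99-fold lower). PI3 kinase subunits fell in 5 of 10 genes and rose in 0, of which Pik3cg, the gamma catalytic subunit, went from 6.57 and 6.53 to 3.55 and 3.88 (at least 5.08-fold lower) and the regulatory subunit Pik3r1 from 6.18 and 6.53 to 5.02 and 5.38 (2.23-fold lower). These 2 calls were kept, and the count of falls was 2 without 3 h replicate 1 and 3 without either unstimulated array.

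Receptors that guide B cells through lymphoid tissue changed in both directions. Of 23 such genes 8 fell and 4 rose (median difference 0.15), and 7 falls and 3 rises were kept. These were 34.8% and 17.4%, against 20.6% and 20.4% of genes above the floor. With the replicate block 7 rose. S1pr1, which draws lymphocytes out into the blood, went from 7.70 and 7.83 to 6.23 and 6.16 (log2 difference -1.57, SE 0.18, adjusted p = 0.000184), and S1pr4 from 8.57 and 9.18 to 5.37 and 6.04 (8.99-fold lower), while S1pr3 of the same family showed the rise described above. Gpr183 (EBI2), the oxysterol receptor that takes activated B cells to the outer follicle, rose from 8.83 and 8.67 to 10.79 and 10.14 (3.29-fold). Ccr7 and Cxcr5, the chemokine receptors for the T zone and the follicle, had differences of 0.32 and 0.16 that did not pass the test. Of 10 adhesion genes 5 fell and 2 rose, with 1 rise without either unstimulated array or without 3 h replicate 1. Itga4 went from 9.60 and 9.89 to 7.02 and 6.76 (7.23-fold lower), its partner Itgb7 from 7.56 and 8.09 to 5.17 and 5.04 (6.60-fold lower) and Itgb3 from 8.20 and 7.49 to 5.40 and 5.27 (5.71-fold lower). Itgav, which pairs with Itgb3, went the other way, from 8.02 and 7.62 to 9.27 and 9.21 (2.69-fold higher). Rgs14 fell from 6.34 and 6.77 to 4.49 and 4.64 (3.96-fold), against the 13.7-fold rise of its relative Rgs1.

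Surface molecules for contact with T cells did not move one way. Of 20 costimulatory and activation markers 8 rose and 4 fell (median difference 0.05), but 2 rises and 3 falls were kept, and the rises numbered 5 without either unstimulated array or without 3 h replicate 1. The kept rises were Cd83, from 11.75 and 11.56 to 12.74 and 12.60 (2.02-fold), and the transferrin receptor Tfrc, from 9.57 and 9.51 to 11.19 and 10.94 (2.87-fold). Icosl, the ligand of ICOS on T cells, fell from 7.69 and 7.14 to 4.03 and 4.12 (at least 9.25-fold lower), and Slamf6 at least 3.08-fold. Cd69, an early activation marker, went from 8.78 and 8.09 to 9.98 and 9.13 (2.18-fold, adjusted p = 0.0369). It did not pass without unstimulated replicate 2 (adjusted p = 0.281) or 3 h replicate 1 (adjusted p = 0.287), nor on the 4 WT arrays alone (adjusted p = 0.0757). Cd86 went from 8.93 and 8.57 to 10.05 and 9.84 (2.28-fold, adjusted p = 0.00997), with adjusted p = 0.0881 and 0.0726 without the same arrays and 0.053 with the mean of its probe sets. With the replicate block Cd69 and Cd86 had adjusted p = 0.000754 and 8.36e-05.

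Cytokine receptors fell in 10 and rose in 4 of 33 genes (median difference 0.02). Of these calls 5 falls and all 4 rises were kept, with 6 falls without either unstimulated array. The shares were 30.3% and 12.1%, against 20.6% and 20.4% of genes above the floor. The rises were Il2ra (CD25), from 4.25 and 4.75 to 7.09 and 7.12 (6.08-fold), Il7r, from 4.25 and 5.06 to 7.64 and 7.66 (7.99-fold), the interleukin 1 receptor Il1r1, from 4.18 and 3.82 to 6.22 and 6.14 (at least 3.92-fold), and its decoy Il1r2, from 6.41 and 6.06 to 8.97 and 8.44 (5.53-fold). Before stimulation all but Il1r2 lay within 1 log2 unit of the floor. The kept falls beside Il10ra were Il17ra (2.19-fold lower), Il27ra (at least 2.33-fold lower), Il18r1, which lay below the floor on all 4 arrays, and the suppressor gene Socs5 (2.21-fold lower). Among 28 secreted factors 4 rose (14.3%, against 9.15% of all genes) and 3 fell (10.7%, against 10.2%), with 3 rises and 3 falls kept. The chemokine gene Ccl4 went from 6.19 and 6.33 to 9.62 and 8.93 (8.07-fold) beside Ccl3, and Tnf from 4.48 and 4.62 to 5.75 and 5.66 (2.23-fold). Ltb, the membrane anchor of lymphotoxin, fell from 10.30 and 10.73 to 7.25 and 8.01 (7.40-fold), Il16 from 10.08 and 10.03 to 7.67 and 7.90 (4.82-fold) and Il12a 2.40-fold.

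In the BCL2 family 6 of 15 genes fell and 2 rose (median difference 0.05), with 2 falls and both rises kept. The shares were 40.0% and 13.3%, against 20.6% and 20.4% of genes above the floor. Bcl2l1 (BCL-XL), which protects activated B cells from death, went from 5.91 and 6.44 to 7.89 and 7.88 (log2 difference 1.71, SE 0.21, adjusted p = 0.00029). Bcl2 itself went from 8.44 and 7.67 to 6.31 and 5.77 (4.05-fold lower, adjusted p = 0.00867), but did not pass without unstimulated replicate 1 (adjusted p = 0.0799) or 3 h replicate 2 (adjusted p = 0.0688). The killer proteins were split: Bmf went from 8.66 and 9.13 to 6.53 and 7.02 (4.36-fold lower) and Bnip3 fell 2.08-fold, while Bid rose from 6.89 and 7.42 to 8.29 and 8.46 (2.34-fold).

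Myc, the growth factor-responsive transcription factor that drives biosynthesis, went from 8.70 and 8.50 to 11.61 and 11.16 (log2 difference 2.79, SE 0.25, adjusted p = 5.39e-05, 6.91-fold). Its antagonists, which bind the same partner MAX, moved unevenly. Mxd4 went from 7.84 and 8.59 to 5.54 and 5.56 (6.34-fold lower) and Mxi1 from 7.58 and 8.10 to 5.69 and 5.76 (4.32-fold lower), whereas Mga rose 1.69-fold (not with the mean of its probe sets, limma adjusted p = 0.166) and Max had a difference of -0.04 (adjusted p = 0.94). Over the 13 genes of this network 4 rose and 3 fell (median difference -0.05), with 2 rises and 2 falls kept. The rises numbered 2 without unstimulated replicate 1, without 3 h replicate 2 or with scaling to housekeeping genes.

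Among cell cycle genes the kinases of G1 rose and several brakes fell. Of 28 cyclins, kinases, inhibitors, pocket proteins and E2F genes 8 fell and 4 rose (median difference -0.05), and 7 falls and 3 rises were kept. These were 28.6% and 14.3%, against 10.2% and 9.15% of all genes. Among genes above the floor the shares were 20.6% and 20.4%. Cdk4 went from 8.86 and 8.68 to 10.26 and 10.26 (2.80-fold higher) and Cdk6 from 8.31 and 8.57 to 9.96 and 10.34 (3.28-fold higher). Their cyclins differed: Ccnd3 fell from 7.48 and 7.80 to 5.45 and 5.48 (4.50-fold). Ccnd2 went from 9.81 and 9.33 to 10.81 and 10.73 (2.31-fold, adjusted p = 0.019), with adjusted p = 0.153 when unstimulated replicate 2 was left out and 0.0966 and 0.0717 when 3 h replicate 1 and 2 were. Several genes that hold cells in G0 fell. Cdkn1b (p27) went from 6.69 and 6.46 to 4.29 and 4.38 (log2 difference -2.24, SE 0.26, adjusted p = 0.000185), and the pocket protein gene Rbl2 (p130) from 7.34 and 7.38 to 4.52 and 4.44 (7.37-fold lower). Rbl1 fell 4.87-fold and Cdkn2d at least 2.44-fold. DNA replication genes gave few calls at 3 h. Of 31 genes, Mcm2 and Pcna rose (1.65-fold and 1.89-fold) and 4 fell, among them Rpa1 (2.68-fold lower) and Pold1 (2.41-fold lower). Of 23 mitotic genes 1 rose and 1 fell, and neither call was kept without any 1 of the 4 arrays.

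Quiescence genes fell widely. Of 33 genes of the KLF and FOXO families and other antiproliferative genes 19 fell and 6 rose (median difference -0.86), and 15 falls and 3 rises were kept. The rises numbered 3 without unstimulated replicate 1, without 3 h replicate 2 or with scaling to housekeeping genes. Of 14 FOXO genes and FOXO targets 11 fell and 2 rose. Foxo1 went from 10.08 and 10.28 to 8.25 and 8.78 (3.18-fold lower), Sesn1, a brake on mTORC1, from 10.10 and 10.15 to 8.06 and 7.77 (4.63-fold lower), and the cyclin G2 gene Ccng2 from 9.01 and 9.29 to 6.95 and 7.43 (3.87-fold lower). Txnip, which limits glucose uptake, went from 9.99 and 10.02 to 8.28 and 7.92 (log2 difference -1.91, SE 0.36, adjusted p = 0.00371). Bcl6, the repressor of germinal centre cells, fell from 8.12 and 7.65 to 6.36 and 6.40 (2.84-fold). The exceptions were Irs2, the insulin receptor substrate, from 5.06 and 5.90 to 7.84 and 8.08 (5.58-fold higher), and the stress-induced Sesn2 (2.14-fold higher). Among KLF genes, Klf2, which keeps naive lymphocytes quiescent and recirculating, went from 9.41 and 9.85 to 7.34 and 6.93 (5.66-fold lower) and Klf3 from 8.50 and 8.94 to 5.93 and 6.05 (6.63-fold lower). Klf10, an early response member, rose from 5.03 and 5.00 to 7.29 and 6.50 (3.69-fold).

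The promoter of Txnip is shown for a match to a forkhead motif, searched as GTAAACA on both strands. It lies at chr3:96557809-96557869 on the plus strand (RefSeq, GRCm38.p6), capitals mark the motif, and 114 bases separate it from the start.
Txnip: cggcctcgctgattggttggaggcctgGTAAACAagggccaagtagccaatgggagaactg
Windows of 5 of 28 quiescence genes with a promoter entry held this motif (17.9%). The share was 3.40% of all genes, 3.20% of genes above the floor, 3.99% of genes that fell and 2.25% of genes that rose. Letters searched for other lists were more frequent in these 28 genes, CACGTG in 25.0% and CACCCCA in 21.4%. Among genes above the floor those shares were 13.2% and 8.79%. Counting only bases upstream of the start, the forkhead shares were 3 of 28 (10.7%) and 3.04% of all genes. Klf9 of the same list holds the motif as well and went the other way, from 7.42 and 8.06 to 8.52 and 9.23 (2.19-fold higher), a call lost without unstimulated replicate 1 or 3 h replicate 2, on the 4 WT arrays alone, with the mean of its probe sets and with housekeeping scaling.

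Transcription factors of B cell identity fell in 14 of 22 genes and rose in 2, with 7 falls and both rises kept and 8 falls without 3 h replicate 1. Tcf3 (E2A) went from 8.68 and 8.61 to 6.15 and 6.69 (4.68-fold lower), Ets1, which restrains plasma cell formation, from 10.51 and 10.31 to 7.28 and 7.56 (7.95-fold lower) and Bcl11a from 8.41 and 8.72 to 6.70 and 6.60 (3.76-fold lower). The Ikaros family member Ikzf3 (Aiolos) fell from 7.48 and 7.72 to 6.29 and 6.80 (2.08-fold). Ikzf1 (Ikaros) went from 9.85 and 9.83 to 8.93 and 9.10 (1.77-fold lower, adjusted p = 0.0218). Its adjusted p lay between 0.0594 and 0.128 when any 1 of the 4 arrays was left out, 0.116 with the mean of its probe sets and 0.00341 with the replicate block. The ID proteins, which block E2A, moved against each other: Id3 went from 8.81 and 9.17 to 6.64 and 7.42 (3.90-fold lower), and Id2 from 3.63 and 3.35 to 6.13 and 6.07 (at least 3.72-fold higher). Irf8 rose 2.19-fold. Of 8 factors of activated B cells and plasma cells 4 rose and 0 fell, and 3 rises were kept. Irf4 went from 10.12 and 9.97 to 12.03 and 12.01 (log2 difference 1.97, SE 0.21, adjusted p = 0.000116), Bhlhe40 from 7.79 and 7.50 to 10.37 and 9.68 (5.21-fold), and Prdm1 (Blimp-1) from 3.53 and 3.44, below the floor, to 4.50 and 4.93 (at least 1.42-fold).

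Genes of antigen presentation and innate sensing, negative regulators among them, fell in part. Of 16 class II genes and regulators 8 fell and 0 rose (median difference -0.74), with 3 falls kept. The falls numbered 3 without 3 h replicate 1 and 5 without any other of the 4 arrays. Marchf1, the ubiquitin ligase that removes class II molecules from the surface, fell most, from 7.05 and 7.28 to 3.68 and 3.89 (log2 difference -3.38, SE 0.15, adjusted p = 2.42e-06, at least 7.77-fold lower). The class II genes H2-DMa and H2-Oa fell 2.36-fold and 2.43-fold. The presenting chains H2-Aa, H2-Ab1 and H2-Eb1 had differences of 0.03, -0.03 and 0.06 that did not pass the test. In the Toll-like receptor list 7 of 24 genes fell and 0 rose, with 5 falls kept, and 3 rose with the replicate block. Beside Sting1, these were Tlr1 (4.62-fold lower), Irak3, an inhibitor of the pathway (3.27-fold lower), Unc93b1, which delivers nucleic acid-sensing receptors to endosomes (2.06-fold lower) and Ly86 (1.56-fold lower). Notch2, needed for marginal zone B cells, went from 10.99 and 10.72 to 9.46 and 9.0 (3.08-fold lower), and Rbpj, the factor it acts through, from 7.88 and 7.98 to 9.07 and 9.19 (2.30-fold higher).

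Ribosome assembly rose almost as a whole. Of 65 genes of rRNA modification, the small subunit processome and large subunit assembly 64 rose and 0 fell (median difference 1.45, against 0.02 over all genes), and 56 rises were kept. The median signal of the list was 7.79 and 7.75 in unstimulated cells and 9.29 and 9.27 at 3 h. Nol6 was the member that was not called, with a difference of 0.19 (adjusted p = 0.72). Rrp1b went from 6.89 and 7.0 to 9.61 and 9.04 (5.20-fold), Naf1, an assembly factor of H/ACA particles, from 6.43 and 6.51 to 8.79 and 8.81 (log2 difference 2.33, SE 0.16, adjusted p = 1.39e-05), and Bysl, which joins the small subunit late, from 6.57 and 6.54 to 8.88 and 8.81 (4.88-fold). The most abundant nucleolar proteins rose less: Ncl went from 11.41 and 11.32 to 12.47 and 12.35 (2.06-fold) and Fbl, the rRNA methyltransferase, from 10.60 and 10.39 to 11.72 and 11.78 (2.39-fold).

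RNA polymerase I, which makes the rRNA, rose in 9 of 11 genes with 0 falls, and 7 rises were kept. Polr1b, its second largest subunit, went from 5.93 and 6.53 to 8.39 and 8.30 (4.33-fold), and the initiation factor Rrn3 from 6.65 and 6.47 to 7.59 and 7.73 (2.14-fold). For polymerase III, 5 of 19 genes rose and 2 fell (1 without unstimulated replicate 2 or 3 h replicate 1, or with scaling to housekeeping genes). Polr3g went from 4.76 and 4.51 to 6.34 and 6.65 (3.62-fold higher), and Maf1, the repressor of polymerase III, from 10.26 and 10.43 to 9.47 and 9.48 (1.83-fold lower). The ribosomal protein genes gave few calls. Of 43 genes 2 rose and 0 fell, with a median difference of -0.02, and the call of Rps25 (1.98-fold higher) was the one that was kept. Without unstimulated replicate 2 or 3 h replicate 1 the count of rises was 1.

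Promoters of 3 assembly genes are shown for the E-box CACGTG, the motif bound by MYC with MAX. Capitals mark the motif and lower case the flanks, 5′ to 3′ on the strand of the gene (RefSeq, GRCm38.p6). The stretches lie at chr6:125131796-125131855 (plus strand, 54 bases between motif and start), chr1:34439681-34439740 (plus strand, 115 bases) and chr11:93885767-93885813 (minus strand, 14 bases).
Nop2: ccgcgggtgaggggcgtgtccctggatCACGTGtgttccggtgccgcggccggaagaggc
Imp4: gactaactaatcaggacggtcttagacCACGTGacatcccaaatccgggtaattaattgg
Utp18: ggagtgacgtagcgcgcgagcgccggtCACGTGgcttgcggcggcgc
Nop2 (an rRNA methyltransferase) went from 6.99 and 6.84 to 8.74 and 8.73 (3.54-fold), Imp4 from 7.28 and 6.93 to 8.68 and 8.38 (2.68-fold) and Utp18 from 8.51 and 8.17 to 9.67 and 9.45 (2.33-fold). The E-box was in the window of 18.8% of 1380 genes that rose, 22% of 706 that rose at least 2-fold, 9.69% of 1527 that fell and 10.2% of all 14452 genes. Over 6442 genes with a mean above the floor the share was 13.2%. Within the assembly list itself it was 9 of 52 (17.3%), close to the share of all genes that rose. When only bases upstream of the start were counted it was 3 of 52 (5.77%), and the 3 genes shown are those. Upstream, the share was 8.73% of all genes, 11.1% of genes above the floor and 14.9% of genes that rose, all above that of the list. These shares are descriptions with no test.

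Translation and protein handling rose in part. Initiation factors and their regulators rose in 21 of 40 genes and fell in 1 (median difference 0.53), with 13 rises and the fall kept. Eif2b3, a subunit of the exchange factor of EIF2, went from 6.05 and 6.18 to 8.81 and 8.27 (5.39-fold) and the cap-binding Eif4e from 9.08 and 8.78 to 10.69 and 10.33 (2.99-fold), while Eif4e3 fell 2.22-fold. Cytosolic tRNA synthetases rose in 14 of 18 genes and fell in 1, with 9 rises kept. Without unstimulated replicate 1, or with scaling to housekeeping genes, 9 rose, and the fall was lost without either unstimulated array, without 3 h replicate 1 or with that scaling. Rars went from 9.08 and 9.18 to 10.57 and 10.48 (2.64-fold) and Farsb from 8.90 and 8.86 to 10.28 and 10.09 (2.47-fold). Nuclear transport genes rose in 26 of 52 and fell in 1 (median difference 0.58), with 13 rises kept and 16 rises without 3 h replicate 1. Rcc1, which charges RAN with GTP, went from 6.11 and 6.32 to 8.07 and 8.24 (3.84-fold), and the importin Ipo4 from 7.87 and 7.84 to 9.24 and 9.25 (2.62-fold). The export receptor Xpo1 was the member that fell, from 10.32 and 9.99 to 9.25 and 9.22 (1.89-fold). Cytosolic and mitochondrial chaperones rose in 17 of 22 genes and fell in 0 (median difference 0.66). The count was 6 without unstimulated replicate 2 or 3 h replicate 1, 9 without 3 h replicate 2 and 11 with scaling to housekeeping genes. The mitochondrial chaperones Hspa9 and Hspd1 rose 2.95-fold and 2.57-fold.

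The proteasome rose in 14 of 47 genes and fell in 3, with 9 rises and 3 falls kept. The 3 falls are the catalytic subunits of the immunoproteasome, Psmb8, Psmb9 and Psmb10, of which Psmb10 went from 9.17 and 9.54 to 8.10 and 8.41 (2.14-fold lower). Mitochondrial ribosomal proteins rose in 36 of 76 genes and fell in 0 (median difference 0.47), with 22 rises kept. With the replicate block, or without unstimulated replicate 1, 1 fell. Mrps6 went from 6.98 and 6.85 to 8.56 and 8.46 (3.02-fold) and Mrpl12 from 8.19 and 8.20 to 9.55 and 9.67 (2.67-fold). The respiratory chain is made in part on those ribosomes. Its 74 genes had 10 rises (13.5%, against 20.4% of genes above the floor) and 4 falls (5.41%, against 20.6%). The median difference was 0.12, and 4 rises and 1 fall were kept. The rises numbered 5 and 6 without unstimulated replicate 1 and 2, and the falls 2 without either of them and 1 without 3 h replicate 1. With the replicate block 8 fell, and with scaling to housekeeping genes 5 rose and 2 fell.

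Transporters and enzymes that supply building blocks rose. Of 16 amino acid and peptide transporters 9 rose and 1 fell (median difference 0.87), with 6 rises and the fall kept, and 2 falls with the replicate block. The 2 chains of the LAT1 transporter rose together, Slc7a5 from 6.89 and 6.64 to 8.46 and 8.0 (2.75-fold) and Slc3a2 from 10.18 and 10.01 to 11.82 and 11.63 (log2 difference 1.63, SE 0.18, adjusted p = 0.000165). Slc38a9, the lysosomal arginine sensor of mTORC1, fell 2.41-fold. Of 11 serine and folate genes 9 rose and 0 fell, with 7 rises kept, led by Shmt1, from 6.32 and 6.15 to 9.18 and 9.03 (7.30-fold), which passes carbon from serine to folate. In the ATF4 list 7 of 12 genes rose and 0 fell, with 3 rises without unstimulated replicate 1 and 4 without unstimulated replicate 2 or with scaling to housekeeping genes. Chac1 (6.19-fold higher), Asns (3.76-fold higher) and Ddit3 (CHOP, 2.91-fold higher) were kept. Nucleotide synthesis rose in 18 of 28 genes and fell in 4, with 12 rises and 2 falls kept and 2 falls without any 1 of the 4 arrays. The 2 CTP synthetases went opposite ways, Ctps from 7.86 and 7.74 to 9.97 and 9.69 (4.07-fold higher) and Ctps2 from 9.45 and 9.46 to 7.77 and 7.72 (3.27-fold lower). Dck, the kinase that salvages deoxynucleosides, went from 8.02 and 7.91 to 5.33 and 4.55 (8.13-fold lower).

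Sugar metabolism rose at chosen steps. Of 26 glycolysis and pentose phosphate genes 8 rose (30.8%, against 20.4% of genes above the floor) and 3 fell (11.5%, against 20.6%). The median difference was 0.33, with 6 rises and 1 fall kept and 1 fall without unstimulated replicate 1 or 3 h replicate 1. Hexokinase 2 (Hk2), the first step, went from 6.36 and 5.77 to 8.99 and 8.51 (6.45-fold), the lactate exporter Slc16a1 from 6.77 and 6.22 to 9.25 and 8.63 (5.46-fold) and Ldha from 10.18 and 10.10 to 11.64 and 11.33 (2.54-fold). The pyruvate dehydrogenase kinase gene Pdk1 fell 2.19-fold, and the glucose transporters Slc2a1 and Slc2a3 had differences of 0.43 and -0.36 that did not pass the test.

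Cholesterol synthesis rose in 11 of 17 genes and fell in 1 (median difference 1.05), with 10 rises kept. The fall, of Ebp, was lost without unstimulated replicate 1 or 3 h replicate 2, and 2 fell with the replicate block. Cyp51 went from 5.42 and 5.56 to 7.75 and 7.32 (4.13-fold), Sqle from 6.36 and 6.02 to 8.29 and 8.12 (4.04-fold) and Hmgcs1, the HMG-CoA synthase, from 9.54 and 9.75 to 10.72 and 10.67 (log2 difference 1.05, SE 0.14, adjusted p = 0.000364). Fasn, the fatty acid synthase, rose 4.17-fold. Of 10 regulators of sterol levels and efflux 3 fell and 1 rose (median difference -0.03), with 2 falls kept. The rise, of Insig1, was lost without unstimulated replicate 2 or 3 h replicate 1, and 2 rose with the replicate block. The kept falls were the efflux pump Abca1, which went from 10.32 and 10.30 to 7.87 and 8.11 (4.99-fold lower), and Mylip (IDOL), a ubiquitin ligase of lipoprotein receptors, from 10.14 and 10.10 to 6.85 and 6.87 (9.60-fold lower). The promoter of Hmgcs1 is shown for the core of a sterol element, searched as CACCCCA on both strands (chr13:119690188-119690248, plus strand, RefSeq GRCm38.p6, 129 bases before the start, capitals for the motif).
Hmgcs1: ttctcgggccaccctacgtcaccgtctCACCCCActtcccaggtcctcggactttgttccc
This core was no more frequent in the list than elsewhere: it was in 7.14% of 14 cholesterol synthesis genes with a promoter entry, 9.63% of all genes, 7.68% of genes that rose and 11.9% of genes that fell.

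**Figure D3:**
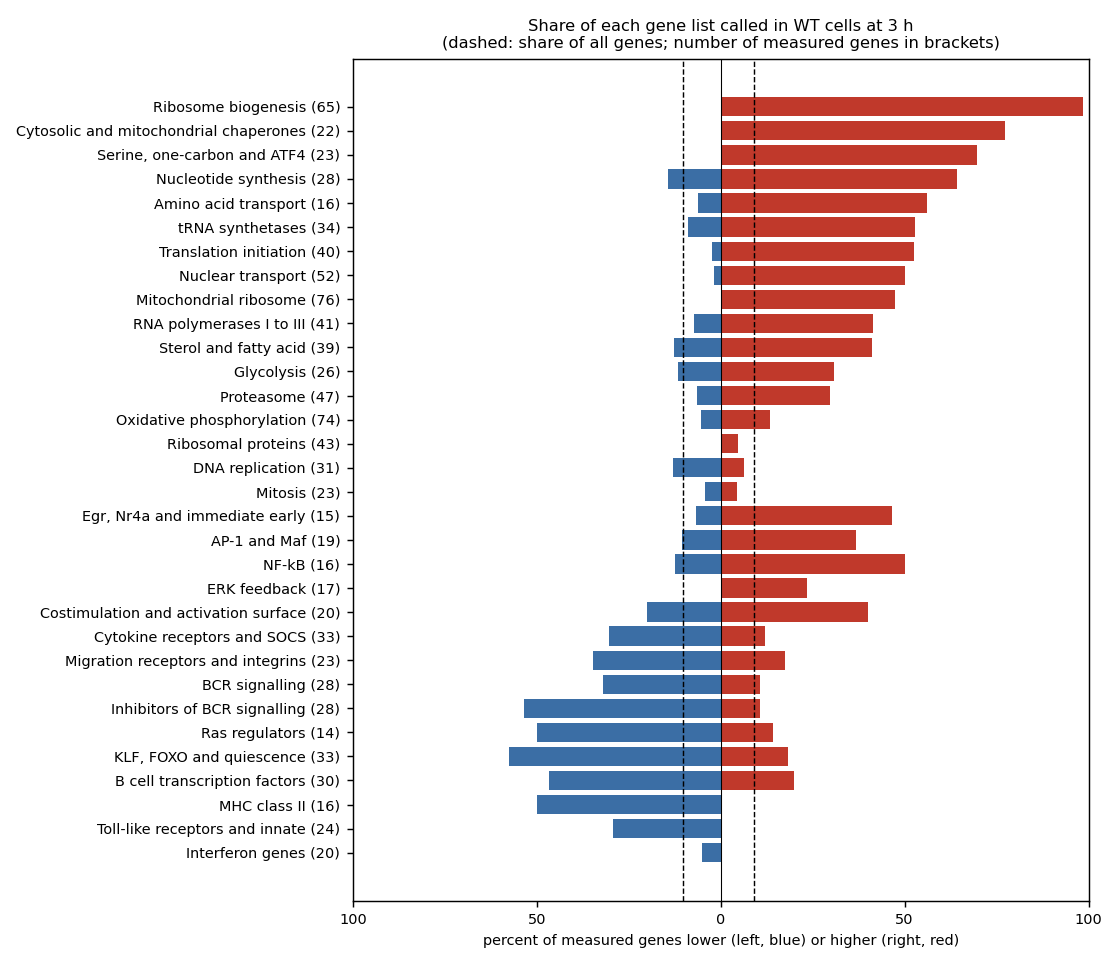
For 32 gene lists, the percent of measured genes that were higher (to the right) and lower (to the left) at 3 h in WT, with dashed lines at the shares over all 18193 genes (9.15% and 10.2%). Among genes with a mean above the floor, which make up most of many lists, the shares were 20.4% and 20.6%. Ribosome assembly lies at the far right with 64 of 65 genes higher and 0 lower, and quiescence is the list with 19 of 33 genes lower.

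The 12 h arrays show how the genes of the 3 h response stood later. Between 3 h and 12 h 1970 genes differed (10.8%), 1182 higher at 12 h (6.5%) and 788 lower (4.33%), and with the replicate block 3090 did. This comparison shares the 3 h arrays with the first one, so the values of both are given side by side and no overlap is counted. Against unstimulated cells 3415 genes differed at 12 h (18.8%), 1839 higher (10.1%) and 1576 lower (8.66%). The unstimulated cells had been cultured for 3 h, and the series holds no 12 h culture without anti-IgM. In both comparisons with 12 h, time with anti-IgM and time in culture therefore cannot be told apart.

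Several transcription factors had come back by 12 h. Fosl2 read 4.86 and 5.71, Maff 4.76 and 5.40 and Id2 3.31 and 3.52 at 12 h, and for each of them these arrays overlapped the unstimulated ones. Nr4a1, at 9.80 and 9.51, Nfkbid, at 10.37 and 10.30, and Irf4, at 10.64 and 10.65, lay between their unstimulated and 3 h levels, as did Myc, at 9.96 and 9.69. Egr2, at 11.12 and 11.25, and Nab2, at 7.47 and 7.72, read higher at 12 h than on both 3 h arrays. Genes that had fallen also took different courses. Id3 read 8.81 and 9.28 at 12 h and overlapped the unstimulated arrays, and Jund read 8.63 and 8.49. S1pr1, at 4.15 and 4.19, and Abca1, at 5.45 and 5.84, were below their 3 h levels. In the AP-1 and MAF list 8 of 19 genes were lower and 1 higher at 12 h than at 3 h, and against unstimulated cells 1 was higher and 3 lower.

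Among the genes changed at 3 h, those with the smallest p for 12 h against 3 h were Mtmr4, Hadh, Satb1, Cnpy4, Macrod1 and Ago2. Mtmr4, a phosphatase of endosomal lipids, went from 6.81 and 6.80 to 5.35 and 5.67 at 3 h and to 8.0 and 8.18 at 12 h (12 h minus 3 h 2.58, limma adjusted p = 3.35e-05). Hadh, an enzyme of fatty acid oxidation, went from 8.66 and 8.81 to 6.97 and 6.81 and then to 9.62 and 10.16 (12 h minus 3 h 2.99). Both had fallen at 3 h and ended above their start, with no overlap between any of the 3 groups. Cnpy4 went from 7.60 and 7.75 to 5.58 and 5.88 and back to 7.76 and 7.89. Ago2, the slicer of the miRNA pathway, moved the other way, from 9.09 and 8.83 to 9.87 and 9.93 and then to 7.91 and 8.01. Satb1 (10.77 and 10.68, then 11.31 and 11.32, then 9.39 and 9.28) and Macrod1 (4.84 and 4.77, then 4.10 and 4.18, then 6.22 and 6.67) differed less at 3 h, and that call was lost for Satb1 without unstimulated replicate 2 and for Macrod1 without 3 h replicate 1 or either unstimulated array.

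Gene lists separated by time as well. Ribosome assembly had 64 of 65 genes higher at 3 h and 56 at 12 h, both against unstimulated cells, and 19 of 65 were lower at 12 h than at 3 h while 1 was higher. The respiratory chain had 10 of 74 genes higher at 3 h and 47 at 12 h, and 39 were higher at 12 h than at 3 h with 0 lower. DNA replication had 13 of 31 genes higher at 12 h than at 3 h and 0 lower. Mitochondrial ribosomal proteins went from 36 to 61 of 76 genes higher, the proteasome from 14 to 34 of 47 and cholesterol synthesis from 11 to 16 of 17. Class II genes went from 8 to 13 of 16 lower. These counts describe lists that were chosen with earlier results known and carry no test of their own.

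**Figure D4:**
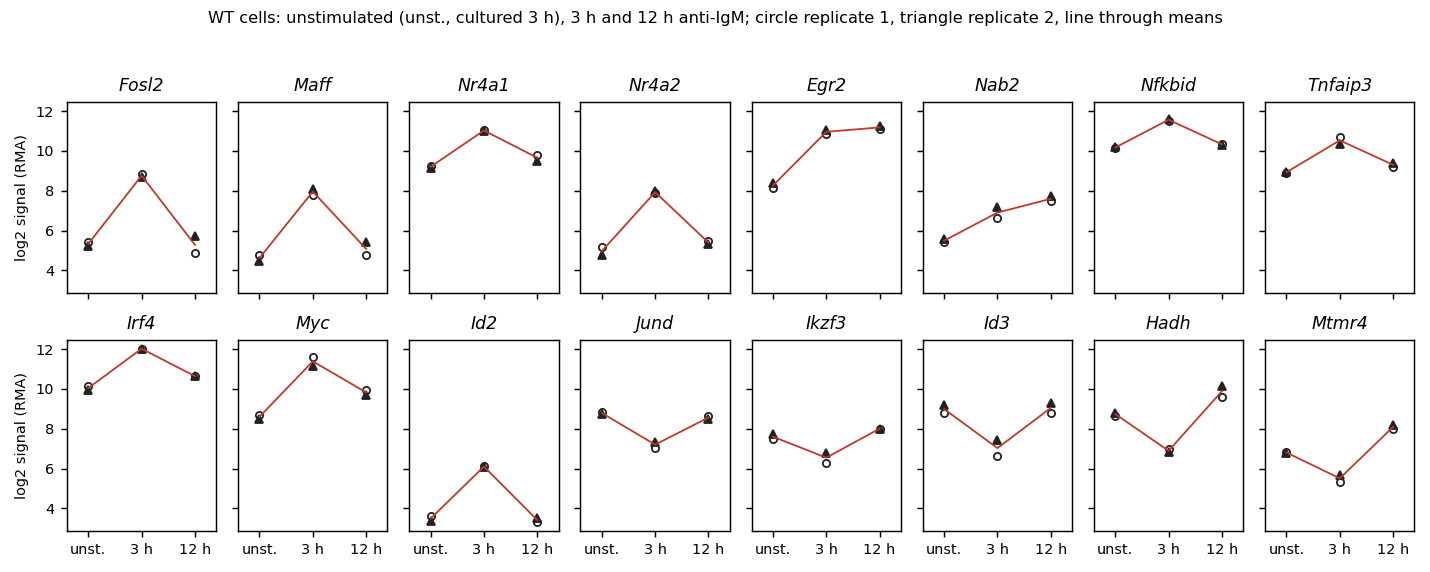
Log2 RMA signal of 16 genes in WT cells without stimulus (marked unst.) and at 3 h and 12 h of anti-IgM, with 1 point per array and a line through the group means; the genes were chosen after their values were seen. Fosl2, Maff and Id2 peak at 3 h and lie near their start at 12 h, Egr2 and Nab2 stay up, and Mtmr4 and Hadh dip at 3 h and end above their start.

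The response of IkL/L cells was measured on other arrays, so the overlap with it shares no sample. In IkL/L cells 3719 genes changed at 3 h (20.4%), 1787 higher (9.82%) and 1932 lower (10.6%). Of the 1665 genes that rose in WT, 1371 also rose in IkL/L cells, which is 82.3% of the WT list and 76.7% of the IkL/L list, and 0 fell. Of the 1864 that fell, 1453 also fell (78.0% of the WT list and 75.2% of the IkL/L list) and 1 rose. The differences of the 2 genotypes correlated across all genes with r = 0.893, a correlation across genes, which are not independent replicates. Ribosome assembly rose in 61 of 65 genes in IkL/L cells.

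The response differed between the genotypes in 7 genes (0.0385%) by limma's test of the difference, with 1027 at an unadjusted p under 0.05 and 27 genes with the replicate block. Of these 7, the signed difference, IkL/L minus WT, was above 0 in 5 (0.0275%) and below 0 in 2 (0.011%), where a value above 0 can also stand for a smaller fall. Among genes changed in WT at 3 h, 4 passed. Il16 fell from 10.08 and 10.03 to 7.67 and 7.90 in WT, and from 9.90 and 9.80 to 6.19 and 6.03 in IkL/L cells (difference of responses -1.47, SE 0.19, limma adjusted p = 0.0419). The unstimulated levels of the genotypes were thus close and the 3 h levels apart. C730049O14Rik and Rflnb, a regulator of filamin, fell in WT from 6.36 and 6.35 to 3.77 and 3.58 and from 6.05 and 6.51 to 3.65 and 3.76. In IkL/L cells they were already low without stimulus, at 4.45 and 4.01 and at 4.30 and 4.17, and read 3.53 and 3.33 and 3.29 and 3.56 at 3 h (limma adjusted p = 0.0419 for both differences). The smaller response of these genes in IkL/L cells thus started near the floor. Axl, a receptor tyrosine kinase, reached 5.59 and 5.80 from 3.14 and 3.07 in IkL/L cells (limma adjusted p of the difference 0.0263), but stayed below the floor in WT, at 2.81 and 2.89 and then 3.46 and 3.28. The WT call of Axl was lost without any 1 of the 4 arrays. The next smallest p values belonged to Rnf125 (WT 5.94 and 5.88 to 3.47 and 3.47, IkL/L 3.14 and 3.83 to 3.03 and 3.21, limma adjusted p = 0.059) and the peptidoglycan sensor Nod1 (WT 5.51 and 5.47 to 3.43 and 3.51, IkL/L 3.80 and 3.84 to 2.95 and 3.31, limma adjusted p = 0.134).

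**Figure D5:**
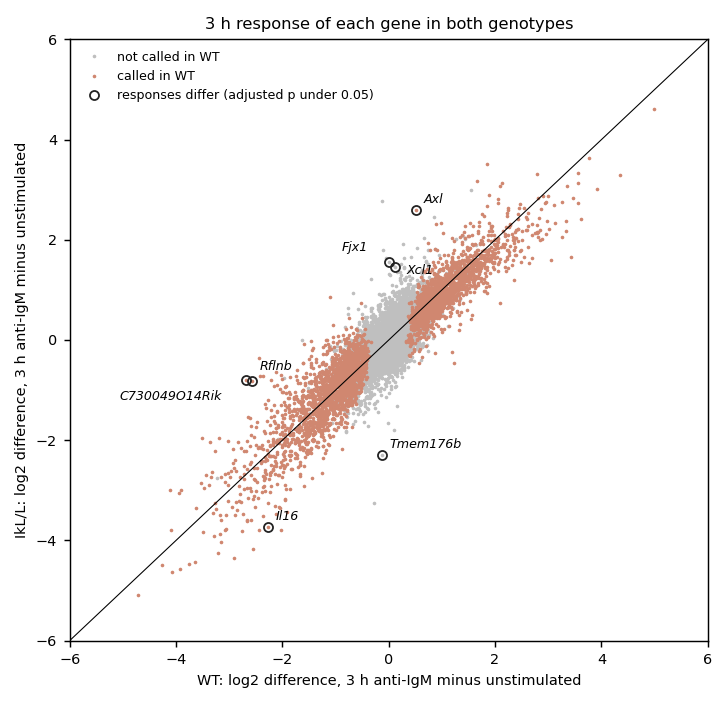
Log2 difference (3 h minus unstimulated) in WT cells (horizontal axis) against that in IkL/L cells (vertical axis), 1 point per gene, coloured where the gene was called in WT, with the diagonal of equal response and circles around the 7 genes whose responses differed. Most points follow the diagonal, Il16 and Tmem176b lie below it and Axl, Rflnb and C730049O14Rik lie above it.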

How the data were processed

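The values are the authors' deposited log2 expression table, made with RMA per the submitters' processing notes from 3' Affymetrix arrays hybridised after two-cycle labelling of 100 ng of RNA. The version of RMA and its settings are not given in the sources used here, and depth has no meaning for arrays, whose number (2 per group) limits the precision. Of 45037 probe sets 34945 have 1 gene symbol. The brightest probe set over all 12 arrays stood for each of 18193 genes, and 2 genes of the 9010 with several had probe sets called in opposite directions (Tnrc6c and Xiap). limma 3.58.1 in R 4.3.3 was fitted with 1 mean per group over 12 arrays, eBayes and Benjamini-Hochberg adjustment, and it was tested on simulated data. Differences between 12 h and 3 h, and between the responses of the genotypes, are contrasts of the same fit. The floor is 1 above the highest array median. Nothing in the labels says which animals or cultures the replicates came from beyond 2 independent experiments, so the p-values reflect only how far these samples lie apart. Between the WT replicates that spread includes the difference in sex seen with Xist, and part of it may be technical.

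Same-numbered arrays deviated together from their group means, with correlations over 6065 bright genes of 0.616, 0.619 and 0.546 between pairs of WT groups and 0.409, 0.354 and 0.490 in IkL/L, so the numbers were taken to pair arrays within a genotype. The fit has no block, and the blocked value stands beside some of the results it changes. Other counts also changed with the block, such as proteasome rises from 14 to 21 and mitochondrial ribosomal rises from 36 to 45. Named genes are the 12 largest rises and falls, members of gene lists by role and size, 10 genes of the B cell response, and the 6 smallest p of each difference comparison. The 12 largest rises and falls come from called genes whose groups do not overlap, without clone, locus and predicted-gene names. The genes and lists were chosen with earlier results of these data known. Promoter windows came from RefSeq (GRCm38.p6) by symbol for 14452 genes, of which 2661 had more than 1 start, and a gene counted once if any of its windows held a motif. None of the motifs contains another. Alternatives were a replicate block, the 4 WT arrays alone, leaving out arrays, the mean of all probe sets, a filter on dim genes, an intensity trend, array weights, median centring and scaling to housekeeping genes.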

Additional observations from a re-analysis of the deposited data

Results flagged for a closer look

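The difference of the 3 h responses, IkL/L minus WT, passed limma's test across all genes in 7 genes. For Il16 it was -1.47, for C730049O14Rik 1.88, for Rflnb 1.76 and for Axl 2.07, with the array values given above. The other 3 genes did not change in WT. Tmem176b, a membrane protein of antigen-presenting cells, read 4.19 and 4.03 without and 3.99 and 3.99 with anti-IgM in WT, and 7.04 and 7.41 without and 4.91 and 4.94 with it in IkL/L cells (difference -2.17). Fjx1 read 3.20 and 3.41 and then 3.35 and 3.27 in WT, below the floor, and 3.22 and 3.26 and then 4.71 and 4.88 in IkL/L cells (difference 1.55). Xcl1, the lymphotactin gene, read 3.25 and 3.34 and then 3.47 and 3.37 in WT, and 3.47 and 3.28 and then 4.72 and 4.93 in IkL/L cells (difference 1.33).

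Probe sets without a single gene symbol, which enter no comparison above, also changed. In a fit on all 45037 probe sets, 332 of those 10092 were higher and 629 lower in WT at 3 h. Of these changes 611 were called in the same direction in IkL/L cells.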

How the results depend on the processing

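Over the fits that left out 1 WT array the genes changed at 3 h numbered 2427 to 2833, with 1166 to 1358 higher and 1258 to 1475 lower. With a whole WT replicate number left out they numbered 1771 (731 higher, 1040 lower) without replicate 1 and 1868 (859 higher, 1009 lower) without replicate 2. The replicate block gave 4458 (2137 higher, 2321 lower), moved the count of genes that differ between 12 h and 3 h from 1970 to 3090 and that of genes whose response differs between the genotypes from 7 to 27, and changed no other named call than those of Fos, Junb and Ighm. Scaling to 9 housekeeping genes gave 1196 higher and 1600 lower. The 4 WT arrays alone, the mean of all probe sets, removal of dim genes, an intensity trend, array weights and median centring gave 3417 to 3908 changed genes. Of 94 counts of higher or lower genes per list, 56 moved by over 1.5 times without WT replicate 1, 52 without WT replicate 2, 22 with housekeeping scaling and 10 with the block. Calls of Macrod1, Axl and Klf9 were lost with housekeeping scaling, the Axl call also with the trend, and Ighm was called with the trend. No sign of a called gene named here turned under any of these settings. The number of arrays, 2 per group, limits the precision, and folds of genes with arrays below the floor are bounds.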

Other observations

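Of 305 zinc finger genes of the Zfp series, many of them repressors, 39 fell (12.8%) and 11 rose (3.61%) at 3 h in WT. Over all genes 10.2% fell and 9.15% rose. The median difference of the series was -0.08, and 21 falls and 4 rises were kept. The rises numbered 6 without unstimulated replicate 1 or 3 h replicate 2, 7 with scaling to housekeeping genes and 18 with a replicate block. In the unfolded protein response list 7 of 28 rose (25.0%) and 4 fell (14.3%), against 20.4% and 20.6% of genes above the floor. Of these calls 2 rises and 2 falls were kept. The rises numbered 2 to 4 with any 1 of the 4 arrays left out (2 without unstimulated replicate 2, 4 without 3 h replicate 2, 3 otherwise) and 3 with scaling to housekeeping genes. The sensor Eif2ak3 (PERK) went from 10.34 and 9.97 to 8.53 and 8.66, with no overlap between the groups.

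Splicing genes rose in 11 of 47 (23.4%) and fell in 3 (6.38%), against 20.4% and 20.6% of genes above the floor. Of these calls 2 rises and 2 falls were kept. The rises numbered 3 without 3 h replicate 1, 7 without 3 h replicate 2, 4 without either unstimulated array and 6 with scaling to housekeeping genes, and a replicate block gave 17 rises and 5 falls. Hnrnpab rose and Hnrnph3 fell (log2 differences 1.14 and -0.67, both kept).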
